A study of Arabidopsis thaliana with 4 samples.

Results

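The sites described here are wild-type RGA sites that lie in the spaces between protein-coding genes. A site was a peak interval of the FLAG-RGA wild-type list that overlapped no interval of the FLAG-rga11 mutant list and whose summit, the base of highest signal, lay more than 1000 bp outside every protein-coding gene of the nuclear genome. This rule gave 713 sites, of 6116 wild-type peaks in all. Of the 747 wild-type peaks that far from coding genes 95.4% had no mutant interval, which is close to the 95.3% of all wild-type peaks, so the absence of a mutant call was as common here as elsewhere in the list. The sites made up 12.2% of the 5827 wild-type-only peaks. The other wild-type-only peaks had their summit within 1 kb outside a coding gene (1344) or inside a gene (3770).

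RGA belongs to the DELLA proteins, which hold back growth in the nucleus. Gibberellin (GA) bound to its receptor GID1 brings DELLA proteins to the F-box protein SLY1, which marks them for degradation. DELLA proteins have no known DNA-binding domain of their own and are held at chromatin through transcription factors, and the title of the series names histone H2A as another contact. Coding genes of Arabidopsis thaliana stand close together on the chromosome arms, and regulatory DNA is mostly found near gene starts. Around the centromeres, in the pericentromere, coding genes are sparse and the DNA is rich in transposons and other repeats packed as heterochromatin.

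Seedlings kept for 10 days in continuous light were used for ChIP-seq, the sequencing of DNA pulled down with a chromatin protein, here through its FLAG tag. The tagged lines, FLAG-RGA wild type and FLAG-rga11 mutant, both carry the label sly1 dP, and so does the control of the mutant. The control of the wild type has sly1 dP in its title but RGA sly1 dQ in its description. Which of these labels gives its genotype was not settled. What dP and dQ stand for, and which promoter drives the tagged proteins, is not in the labels. Each of the 4 groups had 1 library, so no value has a replicate and no test was made. The names inside the mutant list call its control something other than the labels do, so which library served there was not settled. The mutant list held 505 peaks. Positions are those of TAIR10.

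Each site carries the authors' fold, the ratio of ChIP to control at the summit. Intervals are exact 95% Clopper-Pearson intervals for shares and order-statistic intervals for medians, and cover counting error only. The sites were chosen by their peak calls in the wild type and the mutant and by their distance from coding genes, so these values are given as a description. Wherever a share of sites is set beside a share of bases, the bases are all 30.4 Mb of the 5 chromosomes that lie more than 1000 bp outside every coding gene (25.5% of the genome), since a site could only lie there. How much of that DNA can be read by unique alignment was not analysed here.

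The highest site lay 1095 bp from AT1G56630, at 21228054 to 21228530 on chromosome 1. Its fold was 7.62, and 134 ChIP fragments covered its summit. The site at 3615869 to 3616197 on chromosome 5 had a fold of 7.44 and lay 1139 bp from AT5G11330 and, on its other side, 2359 bp from YUC4, a flavin monooxygenase gene of auxin synthesis. The site next in order lay 1405 bp from AT1G09260, was 704 bp wide, and had a fold of 7.32. These sites had control levels between 1.00 and 1.23 times the genome background.

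A site 4955 bp from KNAT3, a KNOX-type homeobox gene, followed with 6.73. Then came sites 1663 bp from AT1G61260 (6.57), 1694 bp from TPR7 (6.49), 1290 bp from the prefoldin gene PFD3 (6.21), 2782 bp from AT3G19390 (6.03) and 1831 bp from AT4G32800 (6.02). The tenth lay 1092 bp from the zinc-finger gene GATA13 (5.84). None of the 10 lay in the pericentromere, and the nearest mutant summit to any of them was 21656 bp away, at the TPR7 site.

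Over all 713 sites the fold ran from 1.31 to 7.62 with a median of 2.87 (2.79 to 2.96). The middle 50% of sites lay between 2.44 and 3.49, and 98 sites (13.7%, 11.3 to 16.5) had a fold of 4 or more. Of the wild-type-only peaks within 1 kb outside genes 9.38% (7.87 to 11.1) reached that fold, and of those inside genes 1.94% (1.52 to 2.43). Median folds of those classes were 2.78 and 2.24. The coverage behind a call did not differ in the same way, since the median number of ChIP fragments over the summit was 61 in each of these 3 classes. The control level did: its median was 1.36 times background at the distal sites, 1.43 just outside genes and 1.77 inside them. Control moved with position, and its part in the fold difference was not tested.

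**Figure D1:**
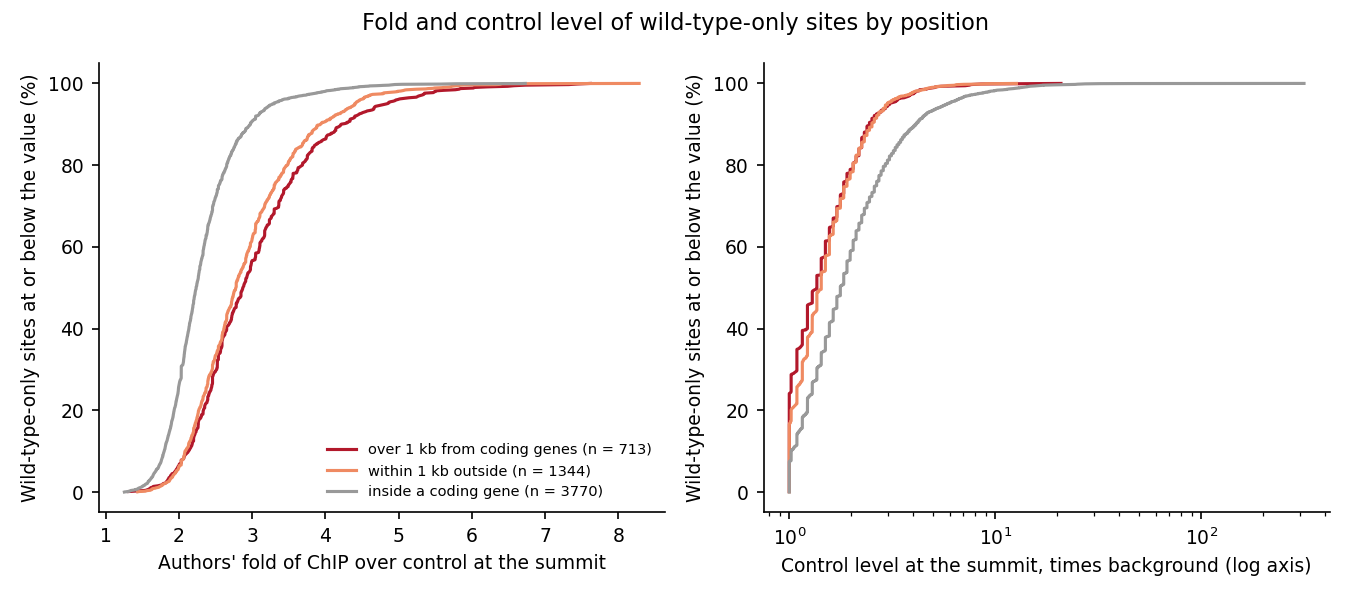
Cumulative shares (%) of wild-type-only sites by the authors' fold (left) and by control level in multiples of the genome background (right, log axis), for sites over 1 kb from coding genes (713), within 1 kb outside (1344) and inside (3770). The curve of the distal sites lies furthest right for fold, with a median of 2.87, and that of sites inside genes furthest left, with 2.24; for control level the order is the other way round, with medians of 1.36 and 1.77.

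Few of the sites had a high control. The control was over 5 times background at 8 of them (1.12%), and at 172 (24.1%, 21.03 to 27.4) it stood at the background itself. The lowest fold, 1.31, belonged to a site nearest to AT2G07718 with 396 ChIP fragments and a control 20.8 times background. Sites just over the distance limit were those 1003 bp from the light-harvesting gene LHCA2 (fold 4.68), 1004 bp from IQD22 (2.15) and 1007 bp from AT3G61200 (2.17). Just under it lay peaks 998 bp from BBX28 (3.30), 998 bp from CAX1 (3.22) and 999 bp from AT2G10615 (3.27), so the limit cuts through a continuous range.

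The mutant call was made at a lower scaled coverage, with a background control level of 7.21 fragments, 0.499 times that of the wild type. This level was solved from the 10.5% of mutant peaks with 1 solution, and is not the depth of the mutant ChIP library. With a control at background, a wild-type peak needed a fold of 2.2 to be in its deposited list and a mutant peak a fold of 2.92. With fragments and control of each site scaled to the mutant coverage, 406 of the 713 sites (56.9%, 53.2 to 60.6) still passed the lowest p of the mutant list, against 35.6% of all wild-type peaks. The shares were 51.5% for wild-type-only peaks just outside genes and 24.0% for those inside. At the remaining sites a mutant signal as strong as that of the wild type would have fallen short of every peak in the mutant list by p. A mutant summit lay within 1 kb of 2 sites, at 613 and 803 bp, and within 5 kb of 48 (6.73%), near the 6.33% of all wild-type-only peaks; the rule itself keeps overlapping mutant peaks out.

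Most distal sites were not far from a gene. The median distance to the nearest coding gene was 1831 bp (1742 to 1978), against 3707 bp for the bases. A share of 35.3% (31.8 to 39.0) lay between 1000 and 1500 bp away, where 17.5% of the bases lie, and 10 sites lay over 10 kb away, where 28.7% of the bases lie. On the arms the medians were 1778 bp (1690 to 1879) for sites and 1943 bp for bases. In the pericentromere they were further apart, at 4165 bp (2874 to 6424) and 10351 bp, and 18.5% (9.25 to 31.4) of its sites against 51.0% of its bases lay over 10 kb from a coding gene.

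On the arms the density of sites was 55.3 per Mb at 1000 to 1500 bp, 46.2 at 1500 to 2000 bp and 55.0 at 2 to 3 kb. It was 38.5 per Mb at 3 to 5 kb and 23.7 at 5 to 10 kb. Up to 3 kb from a gene the density therefore had no steady course, and beyond it was lower. None of 659 arm sites lay over 10 kb from a gene, where a count of 0 allows a share of up to 0.455% (3 counts of the total) or, by the exact interval, 0.558%, and 2.69% of the arm bases lie there.

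**Figure D2:**
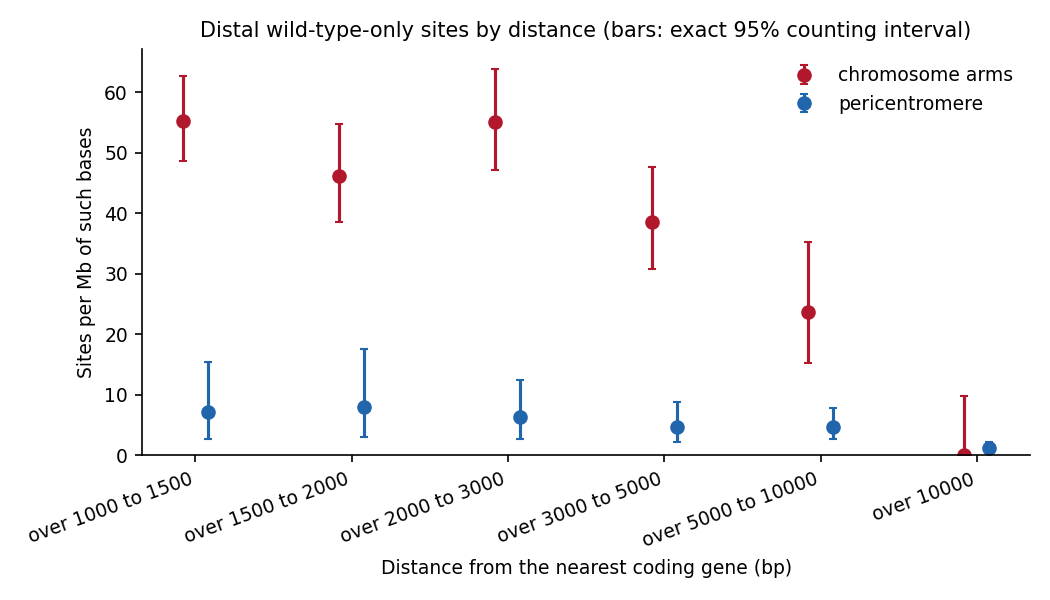
Number of distal wild-type-only sites per Mb of bases at the same distance from the nearest coding gene (bp), on chromosome arms (red) and in the pericentromere (blue); bars are exact 95% counting intervals. Arm values run from 55.3 per Mb nearest the genes to 23.7 at 5 to 10 kb and 0 over 10 kb, and pericentromere values stay at 8.03 or below.

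These sites were sparse in the pericentromere. It was taken as the run of 100 kb windows around the most gene-poor stretch of each chromosome in which the share of coding bases, averaged over 1 Mb, was under 50% of the chromosome's median, 21.3 Mb in all. It held 54 of the 713 sites (7.57%, 5.74 to 9.77) but 53.8% of the bases. The density was 3.31 sites per Mb there and 46.9 per Mb on the arms, a ratio of 14.2. Of the other wild-type-only peaks, which lie in or near genes, 2.37% (1.97 to 2.82) were pericentromeric. The pericentromere held 17.9% of all bases and 53.8% of those far from coding genes. Its share of the bases in or near genes was thus below 17.9%, but was not counted. The 2.37% therefore cannot be set directly beside the 7.57%.

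The contrast appeared on each of the 5 chromosomes. On chromosome 1, 10 sites lay in the pericentromere and 181 on the arms, at 3.19 and 47.4 per Mb. The counts were 14 and 95 on chromosome 2, 13 and 122 on chromosome 3, and 15 and 149 on chromosome 5. Chromosome 4 had 2 pericentromeric sites (0.808 per Mb) and 112 on the arms (43.9 per Mb). Arm densities ran from 40.5 per Mb on chromosome 2 to 52.9 on chromosome 3.

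**Figure D3:**
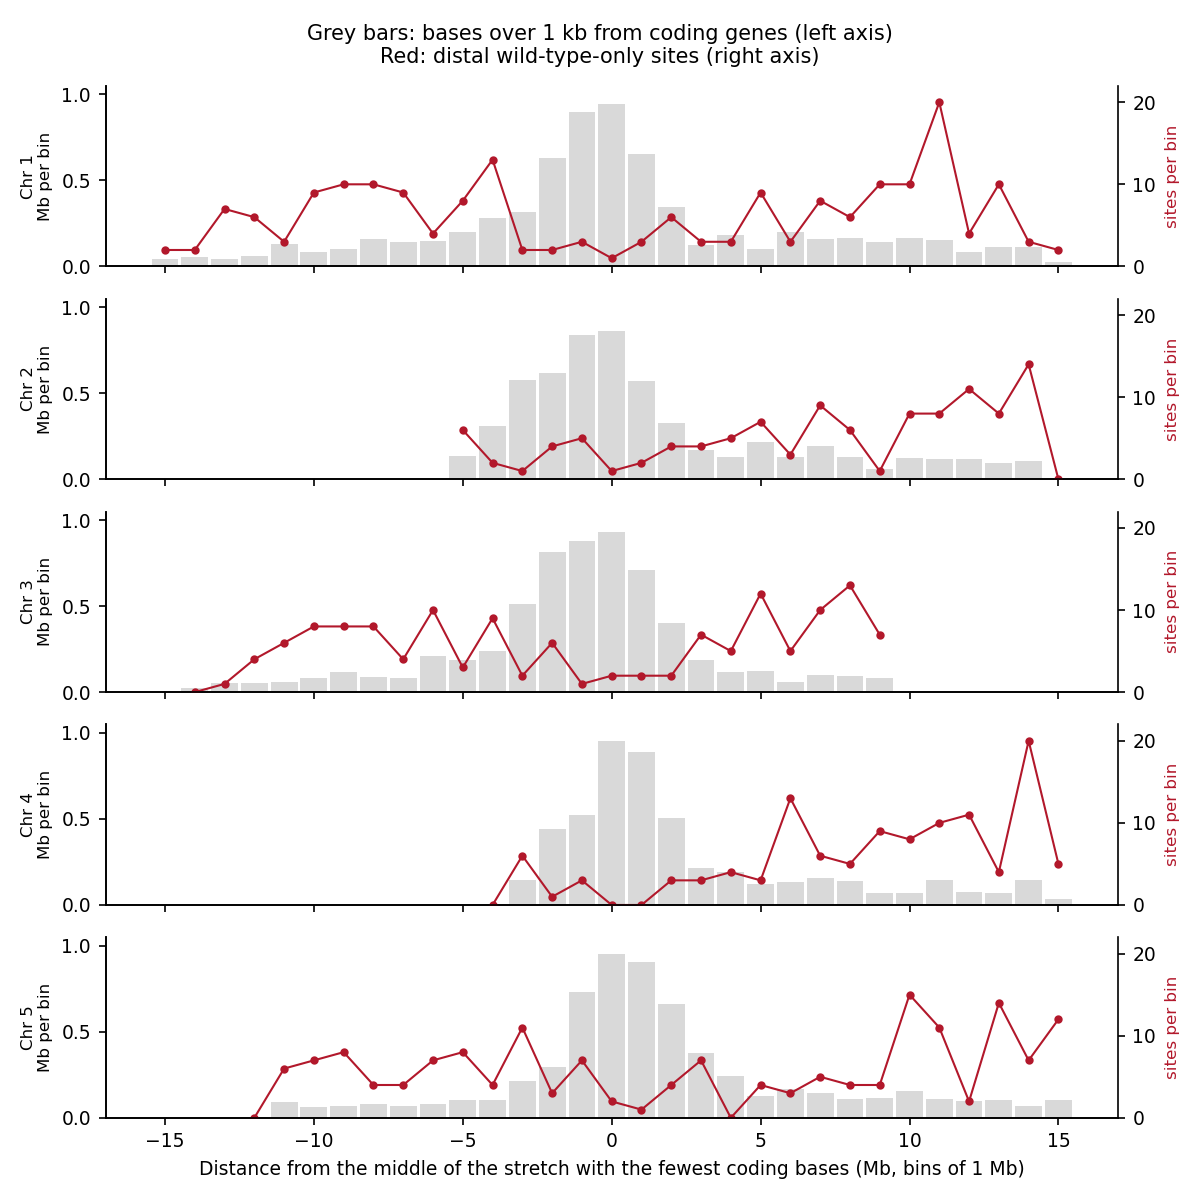
For each chromosome, bases over 1 kb from coding genes (grey bars, Mb per 1 Mb bin, left axis) and distal wild-type-only sites (red, count per bin, right axis) by distance from the middle of the most gene-poor stretch (Mb); bins at chromosome ends are incomplete. The bars are highest in the middle, where the site counts are low; the pericentromeres hold 54 of 713 sites.

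Pericentromeric sites were also lower. Their median fold was 2.52 (2.26 to 2.68) against 2.91 (2.85 to 2.99) on the arms, and 18 of 54 (33.3%) against 58.9% would pass at mutant coverage. Their control was over 2 times background at 33.3% (21.1 to 47.5) of sites, against 20.0% on the arms, while the median control was 1.26 times background there and 1.36 on the arms. The 5 sites farthest from any coding gene were all pericentromeric. They lay 41986 bp from AT1G39060 (fold 2.52), 40329 bp from AT1G38790 (2.65), 38936 bp from AT5G34581 (2.57), 38046 bp from AT5G29613 (3.29) and 37565 bp from AT5G29624 (1.44, with a control 7.62 times background). The last of these lay inside the pseudogene AT5G29975, and the AT1G38790 site inside the pseudogene AT1G38460.

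Genes that encode no protein were next examined, since a site far from coding genes may still lie at a noncoding gene. Of the sites 204 (28.6%, 25.3 to 32.1) had a noncoding gene or pseudogene within 1 kb, against 56.7% of the bases. The remaining 509 sites had no annotated gene of any kind within 1 kb. Their median fold was 2.99, against 2.54 for the 204.

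Long noncoding RNA (lncRNA) genes and pseudogenes had opposite courses. Both are types as given in the gene annotation. How many of its pseudogenes are transposon genes and how many are copies of other genes was not examined. On the arms 63 sites (9.56%, 7.42 to 12.1) had their summit inside an lncRNA gene, against 2.10% of the bases, and 16.8% (14.1 to 19.9) had one within 1 kb, against 10.6%. A pseudogene lay under the summit of 5.01% (3.47 to 6.96) of arm sites, against 17.7% of bases, and within 1 kb of 7.28% (5.42 to 9.54), against 26.9%. In the pericentromere, where 68.0% of the bases have a pseudogene within 1 kb, 23 of the 54 sites (42.6%, 29.2 to 56.8) did. Median folds were 2.62 for the 116 sites with an lncRNA gene within 1 kb and 2.30 for the 71 sites with a pseudogene.

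The highest sites at lncRNA genes were inside AT5G03325 (fold 6.49, the TPR7 site) and inside AT1G05623 (5.62), and 564 bp from AT3G08585 (5.50, near MYB109). The TPR7 site also had a gene of the class of other RNAs within 1 kb, and the next highest site of that class lay inside AT4G03335 (6.02, near AT4G32800). A site at 5862458 to 5862744 on chromosome 3 lay 77 bp from TAS3, which gives rise to small RNAs against auxin response factor transcripts, with a fold of 3.93. Another site lay 212 bp from TAS3 (2.99). At pseudogenes the highest folds were 4.93, 222 bp from AT2G15160, then 4.19, 398 bp from AT2G16670, and 4.14, 213 bp from AT4G01530. Of the 2 sites near a tRNA gene, the site 801 bp from AT1G69130 had a fold of 4.03 and lay 2580 bp from AP1, a floral meristem identity gene.

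MicroRNA genes had 7 sites within 1 kb (0.982%), close to the 0.842% of bases, and all 7 are named for being few. They lay 601 bp from MIR404 (fold 4.66), 447 bp from MIR163 (3.90), and 482 bp from MIR156c (3.24), whose product acts on SPL phase-change genes. Others were within 1 kb of MIR4240 (2.98), 241 bp from MIR166a (2.97), which acts on HD-ZIP III leaf polarity genes, and 711 bp from MIR396b (2.54), which acts on GRF growth genes. The site near MIR854b had the fold of 1.44 and the raised control given above. None of the 7 summits lay inside the microRNA gene.

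**Figure D4:**
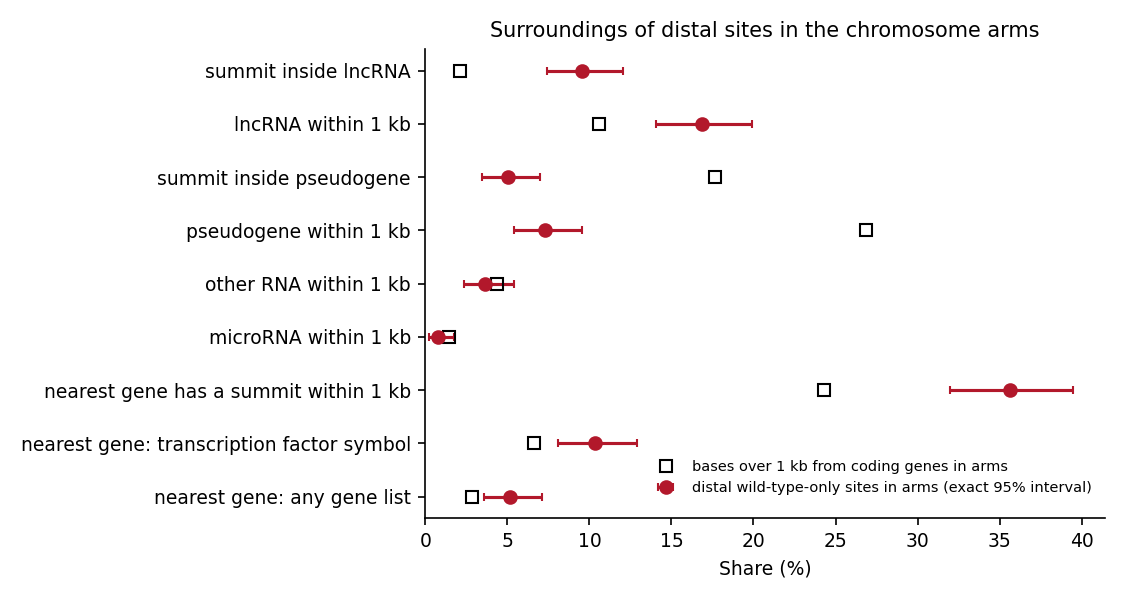
Shares (%) of the 659 distal wild-type-only arm sites (red, exact 95% intervals) and of arm bases over 1 kb from coding genes (open squares) with each kind of surrounding. Sites lie above bases for lncRNA genes (9.56% against 2.10% inside) and for nearest genes with a summit of their own (35.7% against 24.3%), and below them for pseudogenes (5.01% against 17.7% inside).

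By their nearest coding gene, the 713 sites belonged to 643 genes. Of these, 224 also had a wild-type summit inside or within 1 kb, while 419 had a distal site alone. By sites, 35.7% (32.0 to 39.5) on the arms had a nearest gene with such a summit, against 24.3% of the arm bases. The gene table gives no strand, so a site upstream of a gene could not be told from one downstream of it, and the nearest gene need not be the gene that a site acts on.

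Known DELLA target genes were among the neighbours. Of 11 such genes that could be matched, 6 were nearest to a distal site, and 0.842% (0.309 to 1.82) of sites against 0.0817% of bases had a nearest gene of this list. All 6 lay on the arms, where the shares were 0.910% (0.335 to 1.97) and 0.177%. This list and those below were chosen with earlier results of these data known, so their shares are a description only. The highest site lay 4539 bp from XERICO, a RING-finger gene that raises abscisic acid, at 1467417 to 1467682 on chromosome 2. It had 80 ChIP fragments, a control at background and a fold of 5.24. GA3OX1, which makes bioactive GA, had a site 3377 bp away at 5349635 to 5349848 on chromosome 1. It had 57 fragments, a control at background and a fold of 3.75. Neither gene had a summit inside or within 1 kb, and the nearest other wild-type summit lay 37379 bp from the XERICO site and 40808 bp from the GA3OX1 site. The others were EXPA8 (3.36, 1737 bp), the GA receptor GID1B (2.42, 1604 bp), IQD22 (2.15) and WRKY27 (1.89, 1690 bp), which all had another summit within 1 kb. The last 3 of these folds were below the median of the sites.

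Of 38 GA metabolism and signalling genes 5 were nearest to a site, GA3OX1 and GID1B among them. The DELLA gene RGL1 had a site 4122 bp away (2.93). Of the GA 20-oxidase genes, which act one step before GA3OX1, GA20OX3 had a site 1744 bp away (2.88) and GA20OX1 a site 2190 bp away (2.39), and neither had a summit closer than 1 kb. The GA20OX1 site, with 36 fragments at a background control, was among those that would not pass at mutant coverage. These sites made up 0.701% (0.228 to 1.63) of all, against 0.187% of bases. All of them lay on the arms, where the shares were 0.759% (0.247 to 1.76) and 0.405%, a base share inside the interval.

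Other growth and hormone genes had sites as well. DWF4, a brassinosteroid synthesis gene, had a site 2248 bp away with a fold of 5.48, the only one of 15 brassinosteroid genes; a mutant summit lay 2358 bp from it. Of 37 auxin genes 5 had sites: IAA2 (4.67 and 3.19), ARF6 (2.87), AXR3 (2.57), PID (2.23) and AUX1 (1.79). Of 34 jasmonate and abscisic acid genes the abscisic acid synthesis gene NCED3 had 2 sites (3.75 and 3.49) and the phosphatase gene HAI1 had 1 (2.69). Of 44 meristem and organ regulators AP2 had 2 sites (4.64 and 2.75), AP1 1 (4.03), BRC1 1 (3.20) and PHV 1 (3.103). Of 12 cold and stress genes DDF2 had 1 (2.94). On the arms the shares of sites were close to those of bases for these lists: 0.910% (0.335 to 1.97) against 0.814% for auxin, 0.455% (0.0940 to 1.32) against 0.324% for jasmonate and abscisic acid, and 0.759% (0.247 to 1.76) against 0.678% for meristem genes. The brassinosteroid and the cold lists, with 1 site each, had 0.152% (0.00384 to 0.843) against 0.138% and 0.115% of arm bases.

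Over all 8 gene lists, 34 sites at 28 genes had a nearest gene of a list, 4.77% (3.32 to 6.60) against 1.38% of bases. All 34 lay on the arms, where the shares were 5.16% (3.60 to 7.14) and 2.84%. Their median fold was 3.11, against 2.91 over the 659 arm sites and 2.87 over all 713 sites. The lists were composed around DELLA biology, so their share says nothing of gene groups outside them.

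Transcription factor genes, recognised by their symbols, were nearest to 69 sites (59 genes). On the arms this was 10.3% (8.10 to 12.9) of sites against 6.63% of bases. Splitting them by symbol, which was done after the values had been seen, homeobox genes named HB or HAT led with 15 sites at 12 genes, or 2.28% (1.28 to 3.73) of arm sites against 0.608% of bases. MYB genes had 14 sites, 2.12% (1.17 to 3.54) of arm sites against 1.47% of arm bases. WRKY genes had 7 (1.06%, 0.428 to 2.18, against 0.483%) and NAC genes 6 (0.910%, 0.335 to 1.97, against 0.591%). GATA genes had 5 (0.759%, 0.247 to 1.76, against 0.129%), 3 of them at GATA13. For MYB, WRKY and NAC genes the base share lay inside the interval.

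The homeobox genes included ATHB2, listed as HB-2, and HAT1, HAT2, HAT3 and HB4, which encode HD-ZIP II factors of the shade response. ATHB2 was the nearest gene of 4 sites, 1675, 3061, 4827 and 5686 bp away, with folds of 2.47, 3.17, 3.16 and 3.25. With a further site 8338 bp away (1.97) these formed the densest group of distal sites, 5 within 10 kb. Control at the 5 sites had a median of 2.52 times background, above the 1.36 of all sites. HAT2 had a site 1465 bp away (3.37), HAT3 1204 bp (3.30), HAT1 1343 bp (3.12) and HB4 1875 bp away (2.30). With the HLH gene PRE3, listed as BS1 (2.50), these made 9 sites at 6 of 23 PIF, HLH and shade genes, 1.26% (0.579 to 2.38) of all sites against 0.126% of bases. All 9 lay on the arms, where the shares were 1.37% (0.626 to 2.58) and 0.273%. The intervals count the 4 sites nearest to ATHB2 as separate sites, though they stand in 1 group.

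**Figure D5:**
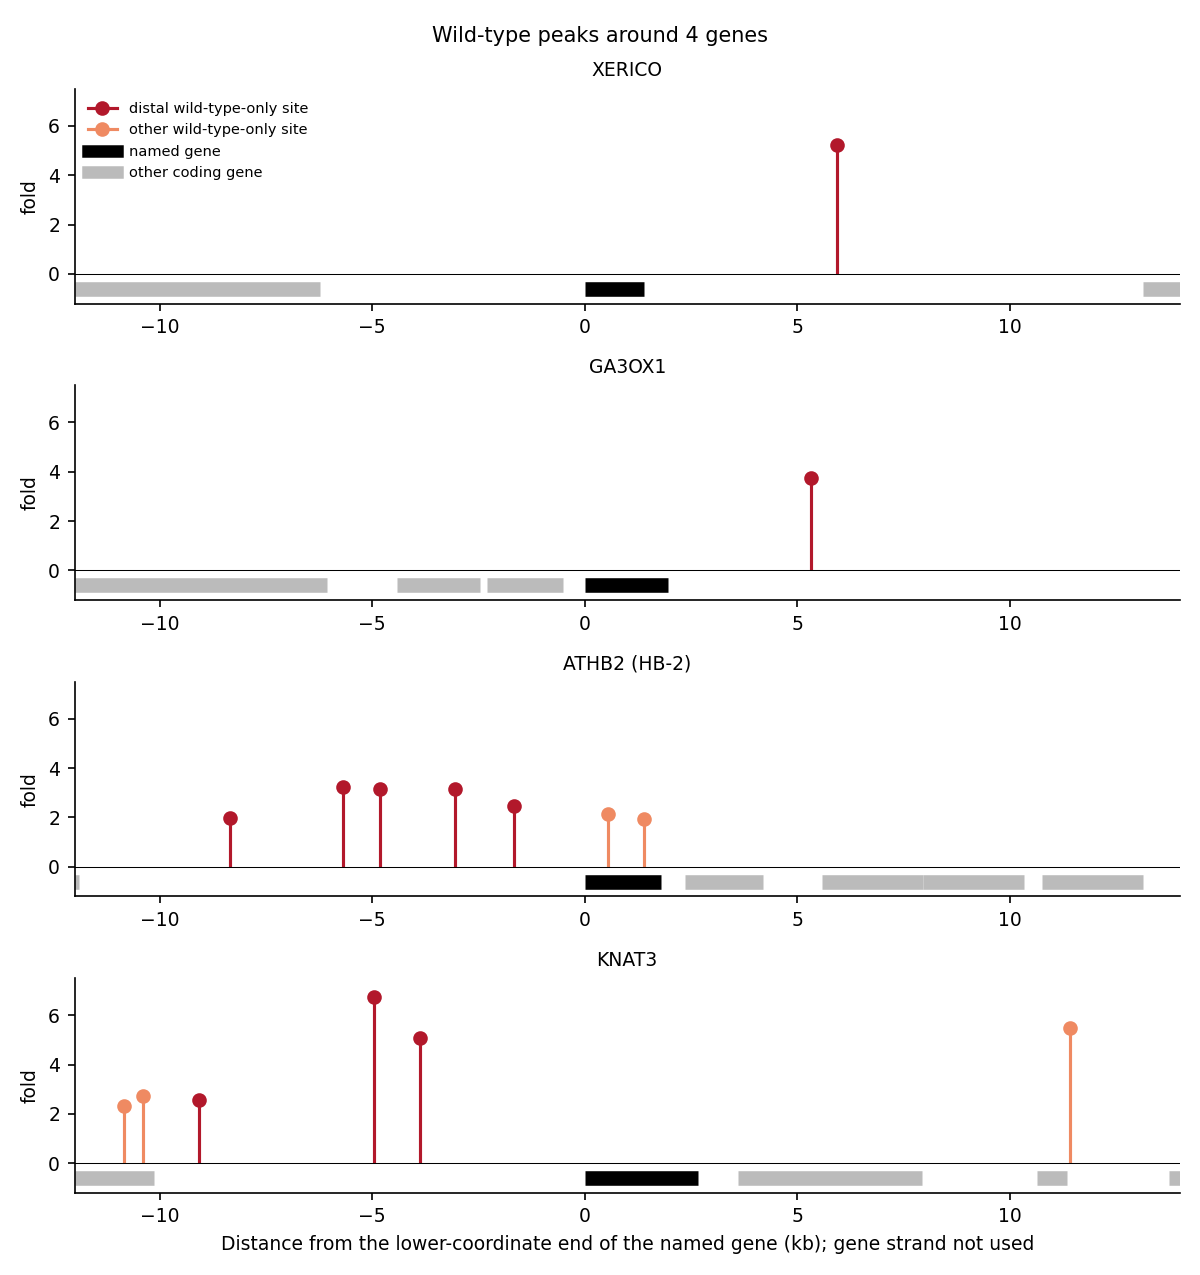
Wild-type peaks around XERICO, GA3OX1, ATHB2 (HB-2) and KNAT3, with the distance from the gene's lower-coordinate end in kb on the x axis and the authors' fold on the y axis; black bars are the named gene and grey bars other coding genes. XERICO and GA3OX1 each have 1 distal site (folds 5.24 and 3.75), ATHB2 has 5 in a row with folds from 1.97 to 3.25, and the 2 sites nearest to KNAT3 reach 6.73 and 5.08; no mutant peak lies in these windows.

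Other dense groups held 4 sites within 10 kb. One lay between AT1G69680 and TCP15, a growth-regulating TCP gene, with folds from 2.35 to 3.85. Another lay between LEJ2 and AP2, with folds from 2.38 to 4.64. The third, nearest to AT2G10615 in the pericentromere of chromosome 2, had folds from 2.23 to 2.53. KNAT3 had sites at 3872 and 4955 bp (5.08 and 6.73), and GATA13 had sites at 1092, 2135 and 3402 bp with folds of 5.84, 4.39 and 3.96, on the side that faces ARF10. Of the 643 nearest genes 54 had 2 sites and 7 had 3 or more.

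Up to 20 kb, longer gaps between coding genes on the arms held sites more often than shorter ones, though most held none. Of 5635 arm gaps wide enough to hold a site 548 (9.72%, 8.96 to 10.5) had at least 1. The share was 2.34% for gaps up to 3 kb, 10.3% from 3 to 5 kb, 18.0% from 5 to 10 kb and 27.3% (22.0 to 33.2) from 10 to 20 kb. Of 26 gaps over 20 kb, 3 (11.5%, 2.45 to 30.2) had a site. Longer gaps have more room for a site, and this was not divided out. In the pericentromere 43 of 902 gaps (4.77%, 3.47 to 6.37) had a site, although their median length was 9027 bp against 3492 bp on the arms. Sites often stood near other peaks: 451 (63.3%, 59.6 to 66.8) had another wild-type summit within 5 kb, as did 53.8% of the wild-type-only peaks just outside genes.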

How the data were processed

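ChIP-seq peak lists of 2 tagged lines were used; chromatin was fixed with 1% formaldehyde for 20 min and incubated for 2 h, per the labels' protocols. The submitters' processing notes list MACS2 2.2.7.1, Bowtie2 2.4.5 and Trimmomatic 0.39, beside deepTools 3.1.3 and the TAIR10 build; their order and settings are not given in the sources used here. Each deposited peak has a fold (a ratio with a pseudocount of 1, as MACS2 writes it), a −log10 p and a −log10 q given by the authors' caller; the deposited score was not used. In the wild-type list −log10 q began at 3.00, in that of the mutant at 3.01. Peak numbers run to 7873 and 778, so the lists hold part of the peaks called. Read totals were not analysed here.

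ChIP fragments and control level at a summit were solved from fold and p, within 0.001 of the deposited −log10 p for all 713 sites; the method recovered 100% of 389 simulated peaks. For the mutant only the background was solved, from the lowest control levels among the 10.5% of peaks with 1 solution. Its ChIP coverage was taken as already scaled, and the shares passing at mutant coverage rest on this level. Scaling to mutant coverage used no redrawing of fragments. Intervals sharing 1 bp overlapped. Genes came from RefSeq on TAIR10.1 (27444 coding genes, 5612 noncoding genes, 4843 pseudogenes), used for names and neighbours and taken to share nuclear coordinates with TAIR10. Of 220 list entries 214 were found by symbol or synonym; RGA, listed as RGA1, was among those not found. Symbols stand in for transcription factor families, so a few genes of another kind are included. Named sites were the 10 highest by fold, the highest with a noncoding gene, the 5 farthest, the densest groups and those nearest to list genes, and those closest to the distance limit. Sites and lists were chosen with earlier results of these data known. Python 3.11.15, pandas 2.3.3 and scipy 1.17.1 were used. No sequence was printed, since no genome was used here.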

Additional observations from a re-analysis of the deposited data

How the results depend on the processing

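Each of the 4 main quantities was recomputed under 9 to 11 alternatives. With a limit of 500 bp there were 1139 sites, 5.71% of them pericentromeric, at a median distance of 1257 bp. With 2000 bp there were 324, 13.0% pericentromeric, 33.0% near a noncoding gene or pseudogene, at a median of 2889 bp. Shares of bases change with the limit too and were not counted at 500 or 2000 bp. The 5.71% and 13.0% therefore cannot be set beside the 53.8% of bases at 1000 bp. A −log10 q of 5 or more gave 24.9% near such a gene; one of 10 or more left 344 sites, 4.07% pericentromeric and 20.9% near such a gene. The upper 50% of the list by fold gave 5.72% and 23.3%. Sites over 1 kb from every annotated gene were pericentromeric in 5.11%. A pericentromere under 25% of the median held 3.79% of sites and 36.8% of bases, and a fixed 2 Mb on either side 6.73% and 49.9%. With the summit inside the gene 16.8% of sites counted as noncoding. The cause of these shifts beyond the changed limits was not tested. The other alternatives (a mutant interval within 500 bp, control at most 5 times background, 1 site per run) gave 712, 705 and 674 sites, and left the other quantities within the 95% intervals given for the 713. No paired analysis was possible because each group had 1 library, and leaving out a replicate was not possible either. The list has a floor: with a control at background, sites at a fold under 2.2 could not be in it. Weaker peaks may have been called and left out, since the list holds part of the peaks called.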

Other observations

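Mutant peaks far from coding genes were placed differently from the 713 wild-type-only sites, of which 7.57% were pericentromeric. Of the 505 mutant peaks 76 (15.0%) had their summit more than 1000 bp outside every coding gene, and 37 of these (48.7%, 37.0 to 60.4) were pericentromeric. Of the 42 that overlapped no wild-type peak 64.3% (48.0 to 78.4) were pericentromeric. The pericentromere holds 53.8% of the bases that far from coding genes, a share inside both intervals, so these mutant peaks lay near the base share. The 34 distal wild-type peaks that overlapped a mutant interval had a median control of 3.21 times background, against 1.36 at the 713 wild-type-only sites, and 29.4% (15.1 to 47.5) of them were pericentromeric. Among them, a site lay 3644 bp from AT1G64380 (fold 4.96). Another lay 1552 bp from RGA itself, listed as RGA1 (3.73); whether a transgene copy of RGA gives signal there was not tested.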
